A study of Homo sapiens with 9 samples.

Results

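The 33 genes described here encode proteins of homologous recombination, the Fanconi pathway, mismatch repair and the replication checkpoint. They were taken by name, from a list of symbols matched to Ensembl identifiers through GENCODE release 29, and the rule uses no measured value. The list was chosen with earlier results of these data known, so counts over it are not an independent test. All 33 were found among the 58233 identifiers counted in each library, and all 33 passed the filter on low counts, among 15440 genes tested. RNA was measured by sequencing in UPCI-SCC-040, an established cell line from an oral squamous cell carcinoma of the tongue. There were 3 groups of 3 libraries. Controls had no TGF-β1 (0 h), and the other groups had received TGF-β1 at 5 ng/ml for 48 h or 72 h. TGF-β1 is a secreted growth factor that restrains the division of many epithelial cells and drives epithelial-mesenchymal transition. In every group replicate 1 was passage 12 of the line, replicate 2 passage 13 and replicate 3 passage 8. The line was kept in medium with 10% fetal bovine serum, but the factor was given in medium lacking serum and antibiotics, and the labels do not say that controls were moved to that medium. The factor, the loss of serum and the days in culture therefore cannot be told apart. All groups are 1 line, and the labels name no separation of replicates other than passage, so p-values measure the spread between these samples.

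Homologous recombination copies an intact sister chromatid to mend a broken one. Ends are cut back to single strands, BRCA1 with BARD1 and PALB2 bring in BRCA2, and mediators and motor proteins then help the single strand find and pair with its matching sequence. The Fanconi pathway deals with crosslinks that stall replication forks: a core complex with the E2 enzyme UBE2T attaches ubiquitin to FANCD2 and FANCI, which lets nucleases unhook the lesion before recombination repairs the break. ATR and CHEK1, helped by the mediator CLSPN, hold the cell cycle while forks are stalled. Much of this machinery is made mainly in S and G2 phase. People with Fanconi anemia, who inherit defects in it, have a high risk of oral squamous carcinoma.

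Library totals ran from 12544690 to 20438727 counts. Squamous markers were high in every library (KRT5 at 3371 to 10511 CPM, counts scaled to a library of fixed size), and the fibroblast, leukocyte and endothelial markers LUM, DCN, PTPRC and PECAM1 stayed at or below 1.73 CPM. The 4 fibroblast markers (COL1A2, PDGFRB, LUM and DCN) summed to 0.181 to 1 CPM in controls, 0.858 to 17.9 CPM at 48 h and 1.99 to 21.8 CPM at 72 h, most of it COL1A2, and their part in the results was not tested. Of 20 markers of cycling cells, 12 were lower at 48 h and 19 at 72 h, with median log2 fold changes of -1.58 and -2.10. Without 72 h replicate 3 all 20 passed at 48 h, without 48 h replicate 1 only 2 did, and without control replicates 1, 2 or 3 or 48 h replicate 3 the counts were 6, 4, 6 and 4. MKI67, the proliferation antigen, changed by -1.60 and -2.73, but its 48 h call was lost with the passage as a block (adjusted p = 0.0642) and in 7 of the 9 fits without 1 library, all but those without 72 h replicate 1 or 3 (0.0591 to 0.137). CCNA2, the S and G2 phase cyclin, changed by -1.81 and -2.66, and its 48 h call was lost without 48 h replicate 1 (adjusted p = 0.0607). The library of 72 h replicate 3 stood apart. It had the lowest summed level of the cycling markers, 725 CPM against 1540 and 2868 CPM in the other 72 h libraries. MALAT1 took 1.54% of its counts, against 0.247% to 0.507% elsewhere. Calls of the named repair genes that turned on it are given with and without it. Fitted log2 fold changes that use the 72 h libraries, and their medians, are given with it only, except that of FANCF.

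Most of the repair genes fell after TGF-β1. At 48 h, 24 of 33 (72.7%) passed the threshold as lower and 0 as higher, where 16% of all tested genes were called lower and 14.9% higher. At 72 h, 28 of 33 (84.8%) were lower and 0 higher, against a background of 19.4% lower and 20.4% higher. Here and below, called means an adjusted p under 0.05 in the quasi-likelihood test of edgeR, adjusted over all tested genes by the Benjamini-Hochberg method. The median of the 33 log2 fold changes was -1.06 at 48 h and -1.26 at 72 h, which is 48.1% and 41.6% of the control level, and the median over all tested genes was -0.0019 and 0.03. At an unadjusted p under 0.05, 28 repair genes were lower at 48 h and 31 at 72 h, and 0 were higher at either time. Over all tested genes, 3392 were lower and 3298 higher at 48 h, and 3697 and 3983 at 72 h. DESeq2 called 26 and 29 repair genes lower at 48 h and 72 h. Over all genes it called 2521 and 2992 lower and 2718 and 3411 higher.

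Both times share the control libraries, so their lists are not independent. Lower at both times were 23 genes, where 13.9% of tested genes were. PMS2 was called at 48 h and not at 72 h. FANCB, FANCL, FANCM, FANCI and CLSPN were called at 72 h and not at 48 h. PALB2, FANCA, FANCF and ATR were called at neither time. The control libraries lay wholly above the treated ones for 31 of the 33 genes at each time, where 28.1% of tested genes did so at 48 h and 27.7% at 72 h. PALB2 and FANCF were the ones whose groups overlapped.

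**Figure D1:**
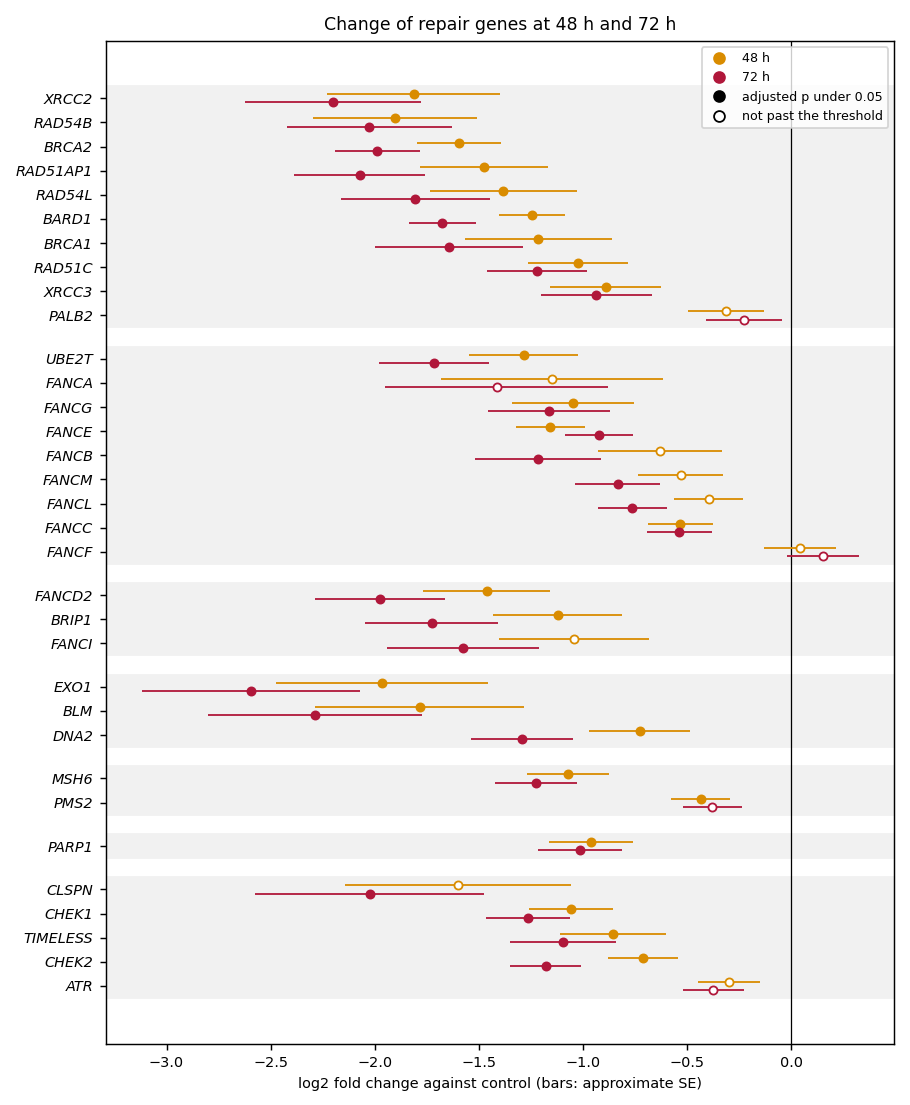
Log2 fold change of each repair gene at 48 h and 72 h against control (horizontal axis), with bars for the approximate standard error and shaded bands for the 7 role groups. Filled points have an adjusted p under 0.05; all points lie below 0 except those of FANCF.

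The 48 h count moved when 1 library was left out. It was 14, 12 and 14 without control replicate 1, 2 or 3, 10 without 48 h replicate 1, 18 without 48 h replicate 2 and 14 without 48 h replicate 3. Lower calls over all tested genes moved with it, from 2478 to 1467, 1344, 1541, 1346, 1923 and 1811 in the same order. Leaving out a 72 h library leaves both compared groups whole, and gave 27, 22 and 30 for replicates 1, 2 and 3. Lower calls over all tested genes were then 2551, 2328 and 3178. The 72 h count stayed between 26 and 29 in the 9 fits without 1 library. In all 9 fits 10 genes kept the 48 h call (BARD1, BRCA2, RAD51AP1, RAD54B, FANCE, UBE2T, FANCD2, MSH6, PARP1 and CHEK1), and 25 of the 28 kept the 72 h call. With the passage as a block, 21 and 28 repair genes were called lower at 48 h and 72 h. Lower calls over all tested genes rose, from 2478 to 2548 at 48 h and from 3001 to 3162 at 72 h. Without a whole passage (12, 13 or 8) there were 7, 3 and 24 calls at 48 h and 27, 9 and 26 at 72 h. Lower calls over all tested genes were 356, 483 and 2340 at 48 h and 1556, 1051 and 2492 at 72 h. Without passage 13 only BARD1, BRCA2, RAD51AP1, FANCE, UBE2T, FANCD2, MSH6, CHEK1 and CHEK2 kept the 72 h call. The 72 h calls of FANCC and FANCL were also lost without passage 12, and those of XRCC3, FANCG and TIMELESS without passage 8.

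Promoters were set beside the values because sites for E2F factors, which drive genes of S phase, are known in many promoters of this machinery. RefSeq (GRCh38.p14) gave a window of 300 bases, from 250 before to 50 after the transcript start, for 30 of the 33 genes; RAD54B, FANCI and DNA2 had none. An E2F match was TTCCCGC, the variant TTCGCGC, or the pair with G as the third letter (TTGCCGC or else TTGGCGC), on either strand. At least 1 window held a match in 21 of 30 repair genes (70%), in 24.8% of the 10493 tested genes with a window and in 15.3% of all 27305 genes in the table. Of the cycling cell markers with a window, 11 of 16 (68.8%) held one. CCAAT, searched on both strands, was present in 56.7% of the repair genes, 87.5% of the cycling cell markers, 42.9% of tested genes and 39.7% of all. The CHR motif TTTGAA, also on both strands, was present in 10%, 25%, 13.8% and 18.2%. A match is a run of letters and not a measured binding site.

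The promoters of the genes lowest and highest after treatment with a window show the range. Each run below is 280 bases, ends 30 bases after the start, and has the E2F and CCAAT matches in capitals.
EXO1, chr1:241847954-241848233, plus strand: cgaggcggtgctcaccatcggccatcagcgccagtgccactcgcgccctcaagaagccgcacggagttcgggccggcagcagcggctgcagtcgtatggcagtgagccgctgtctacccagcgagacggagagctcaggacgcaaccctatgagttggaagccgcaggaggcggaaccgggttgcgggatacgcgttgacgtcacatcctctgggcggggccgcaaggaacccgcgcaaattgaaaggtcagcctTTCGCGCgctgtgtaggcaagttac
BLM, chr15:90717096-90717375, plus strand: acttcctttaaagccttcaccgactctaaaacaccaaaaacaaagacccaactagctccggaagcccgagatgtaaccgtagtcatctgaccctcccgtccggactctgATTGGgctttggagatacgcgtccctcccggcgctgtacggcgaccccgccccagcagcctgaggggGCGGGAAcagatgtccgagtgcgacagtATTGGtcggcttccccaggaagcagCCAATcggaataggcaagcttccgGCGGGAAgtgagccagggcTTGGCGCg
PALB2, chr16:23641281-23641560, minus strand: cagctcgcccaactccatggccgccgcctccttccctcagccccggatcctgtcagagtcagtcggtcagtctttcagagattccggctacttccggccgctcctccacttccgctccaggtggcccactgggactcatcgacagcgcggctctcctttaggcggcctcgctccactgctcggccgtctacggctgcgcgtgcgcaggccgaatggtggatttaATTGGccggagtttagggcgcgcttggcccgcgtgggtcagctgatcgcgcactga
FANCF, chr11:22625794-22626073, minus strand: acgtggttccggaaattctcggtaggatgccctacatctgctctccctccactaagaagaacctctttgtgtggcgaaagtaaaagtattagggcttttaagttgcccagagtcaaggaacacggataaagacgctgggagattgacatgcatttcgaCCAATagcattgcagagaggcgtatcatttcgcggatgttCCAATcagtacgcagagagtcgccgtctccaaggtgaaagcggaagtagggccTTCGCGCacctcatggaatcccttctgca
EXO1, with the lowest mean log2 fold change of the 33, has 1 E2F match, starting 6 bases after the transcript start, and no CCAAT. BLM has 3 E2F matches and 3 CCAAT. PALB2 has a single CCAAT and no E2F match. FANCF, the gene with the highest mean, has an E2F match 2 bases after the start.

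Sites near the start are set side by side, with the E2F letters in capitals and 10 bases on each side. They were picked after the values were seen, to show the same letters in genes with large, moderate and small changes.
XRCC2, chr7:152676104-152676130, minus strand: ggcgttggtgGCGGGAAagttgagtct
CLSPN, chr1:35769967-35769993, minus strand: ctctggctggGCGGGAAagcaagaaca
RAD51AP1, chr12:4538859-4538885, plus strand: ctggttttggGCGGGAAttgaaaccgc
FANCD2, chr3:10026425-10026451, plus strand: gtcgggcctgGCGGGAAagtcgaaaac
BARD1, chr2:214809663-214809689, minus strand: cgtcccagacGCGGGAAgagcttggcc
BRIP1, chr17:61863510-61863536, minus strand: ggggcgggagGCGGGAAttcgtctcgg
MSH6, chr2:47783139-47783165, plus strand: ccccccagatTTCCCGCcagcaggagc
TIMELESS, chr12:56449401-56449427, minus strand: cgcctcgctcTTCGCGCaggcggggac
FANCC, chr9:95317738-95317764, minus strand: cgtcggaattTTCCCGCgacgccgcgg
PMS2, chr7:6009132-6009158, minus strand: ggaagtatttTTGCCGCcccgcccgga
XRCC2, CLSPN, RAD51AP1, FANCD2, BARD1 and BRIP1 carry GCGGGAA, and MSH6 and FANCC the same letters on the other strand (TTCCCGC). The mean log2 fold change over both times was -2.01 for XRCC2 and -0.53 for FANCC. BRCA2, at -1.79, has no match in its window. CHEK1, CHEK2, UBE2T, RAD51C, FANCB, FANCM and ATR have none either.

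Among the 10 recombination mediators and their partners, 9 were lower at 48 h and 9 at 72 h, with medians of -1.31 and -1.74. XRCC2 (ENSG00000196584, chr7:152644779-152676165, minus strand), a mediator of strand exchange, had the lowest mean log2 fold change of this group. Its level was 62.3, 67.9 and 68.1 CPM in control replicates 1, 2 and 3, 17, 21 and 18.4 CPM at 48 h and 23.8, 13.8 and 5.38 CPM at 72 h. Every treated library lay below every control, and 72 h replicate 3 was the lowest of all. On the log2 scale XRCC2 changed by -1.81 at 48 h (SE 0.42, adjusted p = 0.0126) and -2.20 at 72 h (SE 0.42, adjusted p = 0.00445). Its 48 h call was lost without 48 h replicate 1 (adjusted p = 0.053) and with no filter on low counts (0.0692). RAD54B (ENSG00000197275, chr8:94371960-94475109, minus strand), a motor protein of recombination, was the least expressed of the 33 per length. Its CPM were 10.4, 11.9 and 9.67 in controls, 1.5, 3.55 and 3.59 at 48 h and 3.66, 2.79 and 1.36 at 72 h. The treated libraries did not reach the controls, and 48 h replicate 1 and 72 h replicate 3 were lowest, the latter from 22 counts. Its log2 fold change was -1.90 at 48 h (SE 0.40, adjusted p = 0.00696) and -2.03 at 72 h (SE 0.40, adjusted p = 0.00384).

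At the other end of the group stood PALB2 and XRCC3. PALB2 (ENSG00000083093, chr16:23603160-23641310, minus strand) bridges BRCA1 to BRCA2. It had 35.7, 33.5 and 30.4 CPM in controls, 24.5, 24.4 and 31.3 CPM at 48 h and 26.1, 23.1 and 36 CPM at 72 h. Passages 12 and 13 had lower values after treatment, while in passage 8 both treated libraries lay above their control, and the groups overlapped. Against control, the PALB2 log2 fold change was -0.31 at 48 h (SE 0.18, adjusted p = 0.214) and -0.23 at 72 h (SE 0.18, adjusted p = 0.342), so PALB2 was not called. Without passage 8 it was called at both times (adjusted p = 0.0348 and 0.0354). XRCC3 (ENSG00000126215, chr14:103697609-103715504, minus strand), which works with RAD51C, had 39.5, 46.6 and 38.3 CPM in controls, 24.6, 25.5 and 16.9 CPM at 48 h and 31.7, 17.4 and 15.8 CPM at 72 h. All treated libraries were below the controls. The log2 fold change was -0.89 at 48 h (SE 0.27, adjusted p = 0.0303) and -0.94 at 72 h (SE 0.27, adjusted p = 0.02). The 48 h call was lost in 5 of the 9 fits without 1 library (without control replicate 1, 48 h replicate 1, control replicate 2, control replicate 3 or 48 h replicate 3, adjusted p = 0.0687, 0.0696, 0.102, 0.062 and 0.0965) and the 72 h call without control replicate 2 or 72 h replicate 2 (0.071 and 0.0699). Its exons share 5756 bases with KLC1 on the other strand, and the strand setting is not given in the sources used here, so reads of XRCC3 and KLC1 cannot be told apart.

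The remaining mediators fell at both times. BRCA2, the main mediator of strand exchange, changed by -1.60 and -1.99 on the log2 scale at 48 h and 72 h, and RAD51AP1, which stimulates strand pairing, by -1.47 and -2.07. BARD1, the partner of BRCA1 in its ubiquitin ligase, changed by -1.24 and -1.68 with an adjusted p of 0.00101 and 0.000249. For BRCA1 the values were -1.22 and -1.64, with an adjusted p of 0.0298 and 0.00724. Its 48 h call was lost with the passage as a block (adjusted p = 0.0514) and in 6 fits without 1 library, those without control replicate 1, 48 h replicate 1, control replicate 2, 48 h replicate 2, control replicate 3 or 48 h replicate 3 (adjusted p = 0.0554 to 0.103). RAD54L, a motor protein that remodels DNA during recombination, changed by -1.38 and -1.80; its 48 h call was lost without 48 h replicate 1, control replicate 2 or 48 h replicate 3 (adjusted p = 0.0709, 0.0597 and 0.0506). RAD51C, another mediator, changed by -1.02 and -1.22, and its 48 h call was lost without 48 h replicate 1 (adjusted p = 0.0533). In these 6 genes no treated library reached the control range. Exons of RAD54L share 806 bases with LRRC41 and those of RAD54B 3139 with FSBP.

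**Figure D2:**
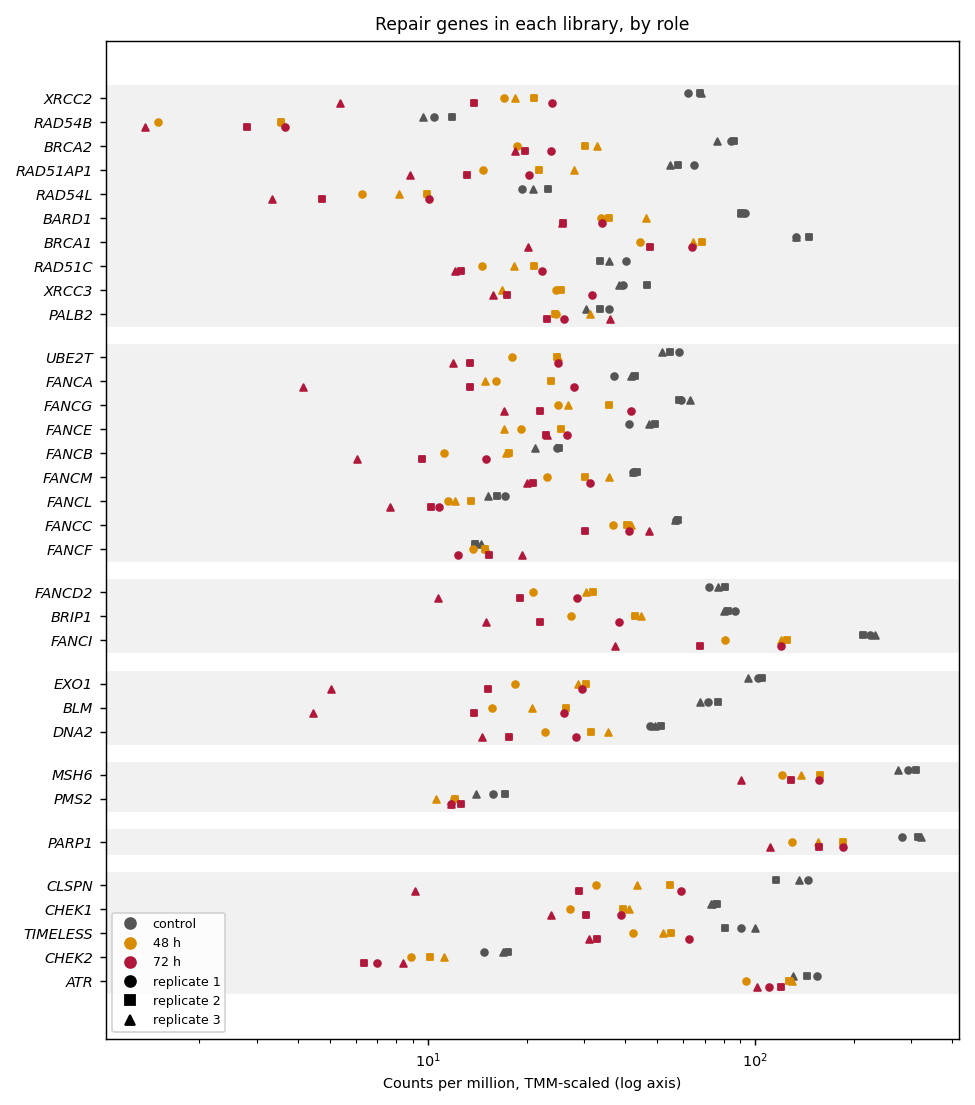
CPM of each repair gene (log axis) in each of the 9 libraries, coloured by group, with the symbol giving the replicate and shaded bands the role groups. Control points cluster at the right of nearly every row, and 72 h replicate 3 is the lowest of the 72 h libraries for 27 of the 33 genes.

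Of the 9 genes of the Fanconi core complex and its E2 enzyme, 4 were lower at 48 h and 7 at 72 h, and the median log2 fold change was -0.63 and -0.92. UBE2T (ENSG00000077152, chr1:202331657-202341980, minus strand), the E2 that supplies ubiquitin for FANCD2, had the lowest mean log2 fold change of the 9. Its CPM were 58.4, 54.9 and 51.8 in controls, 18.1, 24.8 and 25 at 48 h and 25, 13.4 and 11.9 at 72 h. Each treated library was less than 0.5 times its own passage's control. On the log2 scale UBE2T changed by -1.28 at 48 h (SE 0.26, adjusted p = 0.00662) and -1.71 at 72 h (SE 0.26, adjusted p = 0.00141). FANCA (ENSG00000187741, chr16:89737549-89816657, minus strand), a large scaffold subunit, had 72 h libraries far apart. It had 37.1, 42.7 and 41.6 CPM in controls, 16.1, 23.7 and 14.9 CPM at 48 h and 27.8, 13.4 and 4.14 CPM at 72 h. All treated libraries were below the controls, but the 72 h values differed several-fold among themselves. Its log2 fold change was -1.15 at 48 h (SE 0.53, adjusted p = 0.135) and -1.41 at 72 h (SE 0.54, adjusted p = 0.0656), neither past the threshold. Without 72 h replicate 1 the adjusted p was 0.0476 at 48 h and 0.00692 at 72 h, and without 72 h replicate 3 it was 0.00808 and 0.0323. Of 19 alternative settings, 3 called FANCA at 48 h and 4 at 72 h. Among them were 2 groups only at 48 h (adjusted p = 0.00129) and DESeq2 at 72 h (0.0175). Exons of FANCA share 2302 bases with ZNF276 on the other strand.

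FANCF (ENSG00000183161, chr11:22622890-22625841, minus strand), a small adaptor of the core complex, is a gene with 1 exon and had the highest mean log2 fold change of all 33. Its CPM were 13.9, 13.9 and 14.5 in controls, 13.7, 14.9 and 15 at 48 h and 12.3, 15.4 and 19.3 at 72 h. The groups overlapped and the highest value was in 72 h replicate 3. Against control, the FANCF log2 fold change was 0.04 at 48 h (SE 0.17, adjusted p = 0.872) and 0.15 at 72 h (SE 0.17, adjusted p = 0.499). Without 72 h replicate 3 the 72 h value was -0.02 (adjusted p = 0.931). FANCC (ENSG00000158169, chr9:95099054-95426796, minus strand), which joins FANCE in the core, had 57.3, 58 and 56.7 CPM in controls, 36.8, 40.4 and 41.7 CPM at 48 h and 41, 30.2 and 47.2 CPM at 72 h. The treated libraries were all lower than the controls. The log2 fold change was -0.53 at 48 h (SE 0.16, adjusted p = 0.0279) and -0.54 at 72 h (SE 0.16, adjusted p = 0.0213). Both calls were fragile: the 48 h one was lost in 6 fits without 1 library, those without control replicate 1, 48 h replicate 1, control replicate 2, 48 h replicate 2, control replicate 3 or 48 h replicate 3 (adjusted p = 0.0520 to 0.0974), and the 72 h one without control replicate 1, control replicate 2 or control replicate 3 (adjusted p = 0.0582, 0.063 and 0.0543).

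FANCB, FANCL and FANCM passed the threshold at 72 h only. FANCB (ENSG00000181544, chrX:14835961-14873069, minus strand), a partner of the ligase subunit FANCL, had 24.8, 25.2 and 21.2 CPM in controls, 11.2, 17.6 and 17.4 CPM at 48 h and 15, 9.57 and 6.06 CPM at 72 h. No treated library reached the controls. For FANCB the log2 fold change was -0.63 at 48 h (SE 0.30, adjusted p = 0.135) and -1.22 at 72 h (SE 0.30, adjusted p = 0.0112). FANCL (ENSG00000115392, chr2:58159243-58241372, minus strand), the ubiquitin ligase itself, had 17.2, 16.2 and 15.3 CPM in controls, 11.5, 13.5 and 12.1 CPM at 48 h and 10.8, 10.2 and 7.66 CPM at 72 h. Its 3 groups did not overlap, with 72 h lowest. Its log2 fold change was -0.40 at 48 h (SE 0.17, adjusted p = 0.0965) and -0.76 at 72 h (SE 0.17, adjusted p = 0.00637). FANCM (ENSG00000187790, chr14:45135940-45200890, plus strand), the translocase that anchors the core complex to DNA, had 42.4, 43.6 and 42.4 CPM in controls, 23, 30.2 and 35.8 CPM at 48 h and 31.2, 20.9 and 20.02 CPM at 72 h. Control libraries agreed closely and lay above all others. Against control, the FANCM log2 fold change was -0.53 at 48 h (SE 0.20, adjusted p = 0.0721) and -0.83 at 72 h (SE 0.20, adjusted p = 0.0103). At 48 h the 3 genes were called without 72 h replicate 3 (adjusted p = 0.0396, 0.0426 and 0.0426), and FANCM also without 72 h replicate 1 (0.0350). FANCB and FANCM were called at 48 h with no filter too (0.0243 and 0.0357) and with 2 groups only (0.0297 and 0.0306). Of 19 alternative settings, 3 called FANCB at 48 h, 1 FANCL and 5 FANCM. The change from 48 h to 72 h was called for none of them. Exons of FANCL share 452 bases with VRK2.

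FANCE and FANCG fell at both times. FANCE, which contacts FANCD2, changed by -1.16 and -0.92 on the log2 scale and kept both calls in all 9 fits without 1 library. FANCG, a core scaffold, changed by -1.05 and -1.16; its 48 h call was lost without control replicate 1, 48 h replicate 1, control replicate 2, control replicate 3 or 48 h replicate 3 (adjusted p = 0.0624, 0.0906, 0.0651, 0.07 and 0.0768), while the 72 h call was kept in all 9 fits without 1 library and lost without passage 13 or passage 8 (adjusted p = 0.108 and 0.069).

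The substrates of the core complex, FANCD2 and FANCI, and the helicase BRIP1 (FANCJ) were all lower at 72 h, and FANCD2 and BRIP1 at 48 h. The medians were -1.12 and -1.73. FANCD2 (ENSG00000144554, chr3:10026414-10101930, plus strand) had 72.2, 80.5 and 76.8 CPM in controls, 21, 32 and 30.4 CPM at 48 h and 28.5, 19.1 and 10.7 CPM at 72 h. All treated values were under 0.5 times those of the controls. The log2 fold change was -1.46 at 48 h (SE 0.31, adjusted p = 0.00796) and -1.97 at 72 h (SE 0.31, adjusted p = 0.00174). FANCI (ENSG00000140525, chr15:89243949-89317261, plus strand), its clamp partner, had 224, 214 and 233 CPM in controls, 80.6, 125 and 120.1 CPM at 48 h and 119.9, 67.6 and 37.3 CPM at 72 h. The treated libraries stayed well below the controls but spread widely at 72 h. For FANCI the log2 fold change was -1.04 at 48 h (SE 0.36, adjusted p = 0.056) and -1.58 at 72 h (SE 0.37, adjusted p = 0.00944). Without 72 h replicate 1 or 3, FANCI was called at 48 h (adjusted p = 0.0119 and 0.00524). Of 19 alternative settings, 5 called FANCI at 48 h, among them DESeq2 (0.0206) and 2 groups only (0.00143). BRIP1, which unwinds DNA beside BRCA1, changed by -1.12 and -1.73. Its 48 h call was lost without control replicate 1, 48 h replicate 1, control replicate 2 or control replicate 3 (adjusted p = 0.0702, 0.0869, 0.0674 and 0.0592). Exons of FANCI share 458 bases with POLG.

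The enzymes that cut back ends and dissolve joined molecules included EXO1 and BLM, the genes with the lowest mean log2 fold changes of the 33, and all 3 were lower at both times. EXO1 (ENSG00000174371, chr1:241847967-241895148, plus strand), the 5′ exonuclease of long resection and mismatch repair, had 102, 105 and 95 CPM in controls, 18.4, 30.3 and 28.7 CPM at 48 h and 29.5, 15.2 and 5.07 CPM at 72 h. The 72 h libraries ranged several-fold, and the highest of them was still far below any control. Its log2 fold change was -1.97 at 48 h (SE 0.51, adjusted p = 0.0214) and -2.60 at 72 h (SE 0.52, adjusted p = 0.00594). BLM, the helicase mutated in Bloom syndrome, changed by -1.78 and -2.29, and its lowest library was again 72 h replicate 3 at 4.45 CPM against 71.7, 76.9 and 67.6 CPM in controls. At 48 h the adjusted p was 0.0282 for BLM, and the calls of EXO1 and BLM were lost in 5 and 6 fits without 1 library. These were EXO1 without any 1 of control replicate 1, 48 h replicate 1, control replicate 2, control replicate 3 and 48 h replicate 3 (adjusted p = 0.0505 to 0.0784) and BLM without any 1 of control replicate 1, 48 h replicate 1, control replicate 2, 48 h replicate 2, control replicate 3 and 48 h replicate 3 (adjusted p = 0.0528 to 0.1). With no filter on low counts the 48 h calls of EXO1 and BLM and the 72 h call of BLM were lost too (adjusted p = 0.118, 0.152 and 0.0634). DNA2 (ENSG00000138346, chr10:68414064-68472121, minus strand), the nuclease-helicase of the second resection route, had 47.8, 51.3 and 49.3 CPM in controls, 22.7, 31.6 and 35.5 CPM at 48 h and 28.2, 17.7 and 14.6 CPM at 72 h. Treated and control libraries did not overlap. Against control, the DNA2 log2 fold change was -0.73 at 48 h (SE 0.24, adjusted p = 0.0442) and -1.29 at 72 h (SE 0.24, adjusted p = 0.00331). The 48 h call of DNA2 was lost with the passage as a block (adjusted p = 0.0654), with upper-quartile scaling (0.054), with DESeq2 size factors (0.0522) and in 7 fits without 1 library, those without control replicate 1, 48 h replicate 1, control replicate 2, 48 h replicate 2, 72 h replicate 2, control replicate 3 or 48 h replicate 3 (adjusted p = 0.0503 to 0.150).

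Of the mismatch repair genes, MSH6 (ENSG00000116062, chr2:47695530-47810101, plus strand), which recognises mismatches, had 294, 310.3 and 273 CPM in controls, 120.4, 158 and 138 CPM at 48 h and 157, 128 and 90.5 CPM at 72 h. The treated libraries stood far below the controls. The log2 fold change was -1.07 at 48 h (SE 0.20, adjusted p = 0.00409) and -1.22 at 72 h (SE 0.20, adjusted p = 0.0016). PMS2 (ENSG00000122512, chr7:5973239-6009125, minus strand), an endonuclease that acts after mismatch recognition, had 15.7, 17.1 and 14 CPM in controls, 12, 12.1 and 10.6 CPM at 48 h and 11.7, 12.6 and 11.7 CPM at 72 h. Its treated libraries were below the controls and close to each other. For PMS2 the log2 fold change was -0.43 at 48 h (SE 0.14, adjusted p = 0.0428) and -0.38 at 72 h (SE 0.14, adjusted p = 0.058). At 72 h 1 of 19 alternative settings called it, the filter of 1 CPM in 3 libraries (0.0476). The 48 h call was lost with the passage as a block (adjusted p = 0.0527), with no filter (0.237), with upper-quartile scaling (0.0679) and in 8 of the 9 fits without 1 library, all but the one without 72 h replicate 3 (adjusted p = 0.0514 to 0.155). PMS2 has pseudogene copies that may share or take its reads, so its level is uncertain, and exons of MSH6 share 1785 bases with FBXO11.

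PARP1 (ENSG00000143799, chr1:226360691-226408079, minus strand), the sensor that marks strand breaks with poly(ADP-ribose), had the highest control level per length. It had 281, 314 and 320.1 CPM in controls, 129, 185 and 156 CPM at 48 h and 185, 157 and 111 CPM at 72 h. The lowest control was well above the highest treated library. Its log2 fold change was -0.96 at 48 h (SE 0.20, adjusted p = 0.007) and -1.01 at 72 h (SE 0.20, adjusted p = 0.00404). Both calls were kept in all 9 fits without 1 library.

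In the replication checkpoint, 3 of 5 genes were lower at 48 h and 4 at 72 h, with medians of -0.86 and -1.18. CLSPN (ENSG00000092853, chr1:35720218-35769967, minus strand), the mediator that lets ATR activate CHEK1, had 145, 116 and 136 CPM in controls, 32.5, 54.9 and 43.4 CPM at 48 h and 59.4, 28.8 and 9.14 CPM at 72 h. All treated libraries were below the controls, with 72 h replicate 3 far under the rest. Against control, the CLSPN log2 fold change was -1.60 at 48 h (SE 0.54, adjusted p = 0.0545) and -2.02 at 72 h (SE 0.55, adjusted p = 0.0199). The 72 h call was lost without control replicate 1 or 72 h replicate 2 (adjusted p = 0.0556 and 0.0562), and also with no filter on low counts (0.116) or without passage 13 (0.119). At 48 h CLSPN was called without 72 h replicate 1 or 3 (adjusted p = 0.017 and 0.00226). Of 19 alternative settings, 6 called it at 48 h, among them DESeq2 (0.00632) and 2 groups only (0.000362). ATR (ENSG00000175054, chr3:142449235-142578826, minus strand), the kinase at the head of the pathway, had 154, 144 and 131 CPM in controls, 93.4, 126 and 129 CPM at 48 h and 110.2, 120.1 and 101 CPM at 72 h. In passage 8 the 48 h library was almost level with its control. The log2 fold change was -0.30 at 48 h (SE 0.15, adjusted p = 0.15) and -0.37 at 72 h (SE 0.15, adjusted p = 0.0698), so ATR was not called, except at 72 h without 48 h replicate 1 (adjusted p = 0.0431).

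CHEK1, the kinase that ATR activates, changed by -1.06 and -1.26 at 48 h and 72 h and kept both calls in all 9 fits without 1 library. TIMELESS, a fork protection protein, changed by -0.86 and -1.09; its 48 h call was lost in 6 of those fits, without control replicate 1, 48 h replicate 1, control replicate 2, 48 h replicate 2, control replicate 3 or 48 h replicate 3 (adjusted p = 0.0528 to 0.1096). CHEK2, the kinase of the parallel ATM route, changed by -0.71 and -1.18, and its 48 h call was lost without 48 h replicate 1 or control replicate 2 (adjusted p = 0.0523 and 0.0528). CHEK2 had 14.8, 17.6 and 16.9 CPM in controls, 8.88, 10.1 and 11.2 CPM at 48 h and 6.99, 6.38 and 8.4 CPM at 72 h, so that its 3 groups did not overlap. It has near-identical pseudogene copies and shares 301 exonic bases with HSCB, and its counts are uncertain.

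The summed level of the 33 genes was set beside that of the cycling markers. The repair genes added up to 2609, 2646 and 2576 CPM in control replicates 1, 2 and 3, 1027, 1418 and 1336 CPM at 48 h and 1394, 1011 and 778 CPM at 72 h. The cycling markers added up to 7001, 6995 and 6635 CPM, 2046, 2845 and 2887 CPM and 2868, 1540 and 725 CPM in the same order. Both sums were highest in the controls and lowest in 72 h replicate 3, and among 48 h libraries both were lowest in replicate 1. Per 100 CPM of cycling markers, the repair genes had 37.3, 37.8 and 38.8 CPM in controls, 50.2, 49.8 and 46.3 CPM at 48 h and 48.6, 65.6 and 107 CPM at 72 h. On this scale every treated library lay above every control. CDKN1A, the cell cycle inhibitor p21, was in none of the lists and is given without a test. It was at 91.8, 80.7 and 91.7 CPM in controls, 420.2, 414 and 279 CPM at 48 h and 429, 377 and 355 CPM at 72 h. In bulk RNA, fewer cycling cells and less repair mRNA per cell cannot be told apart, and the part of the cycling markers in the fall of the repair genes was not tested.

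**Figure D3:**
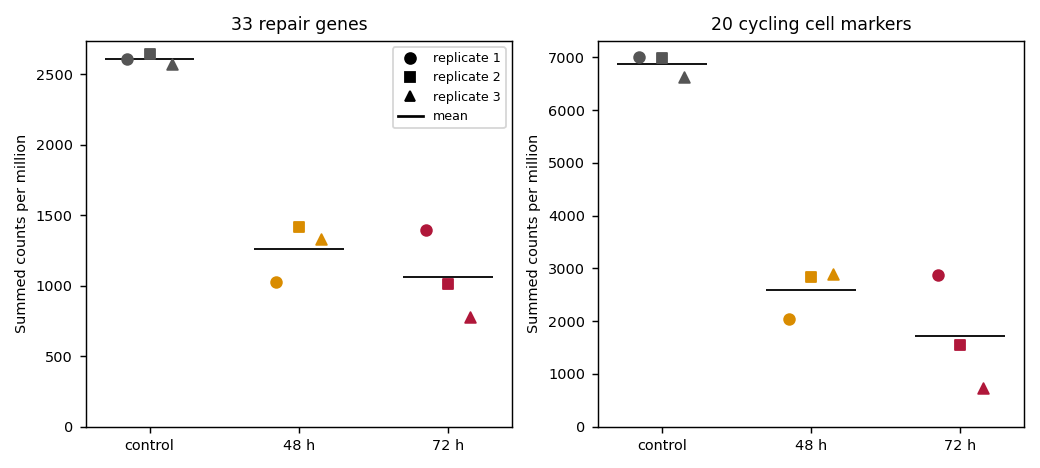
Summed CPM of the 33 repair genes (left) and of the 20 cycling cell markers (right) in each library, by group, with symbols for the replicate and lines for the group mean. Both sums are highest in the 3 controls and lowest in 72 h replicate 3.

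Between 48 h and 72 h no gene passed the threshold: 0 of the 33 repair genes and 0% of all tested genes were called lower, and 0% higher. The median change of the repair genes was -0.37 on the log2 scale, with 29 of 33 values negative, against a median of 0.02 over all tested genes. At an unadjusted p under 0.05 there were 3 repair genes lower (BARD1, DNA2 and CHEK2) and 0 higher, where 540 of all tested genes were lower and 842 higher. DESeq2 called 0 repair genes, and 15 genes lower and 24 higher overall. FANCL and CHEK2 were the 2 repair genes whose 72 h libraries all lay below the 48 h ones, which 5.17% of tested genes showed.

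The passages did not go the same way after 48 h. In passage 12 (replicate 1), 29 of 33 repair genes were higher at 72 h than at 48 h, with a median log2 ratio of 0.47. In passage 13 (replicate 2), 31 were lower, with a median of -0.60, and in passage 8 (replicate 3), 28 were lower, with a median of -0.83. The cycling markers split alike: 20 of 20 higher in passage 12, and 20 of 20 lower in each of passages 13 and 8. Over all tested genes the share higher at 72 h was 51.3%, 49.6% and 54.2%. Each passage is 1 library per time, so these are descriptions without a test. Against control all 3 passages went down, with 33, 32 and 31 of 33 repair genes below 0 at 48 h and the same numbers at 72 h. Over all tested genes 50.7%, 50.7% and 51.9% were below 0 at 48 h, and 51.3%, 50.3% and 47.8% at 72 h. The median ratio of the repair genes in replicates 1, 2 and 3 was -1.29, -0.87 and -0.97 at 48 h and -0.90, -1.44 and -1.79 at 72 h.

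**Figure D4:**
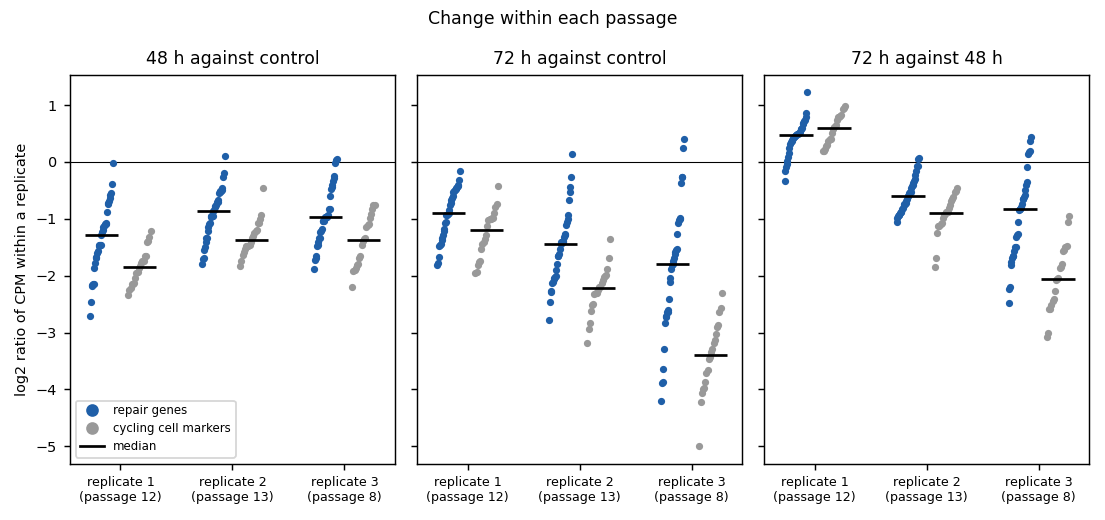
Log2 ratio of CPM between libraries of the same passage (vertical axis) for each repair gene and each cycling cell marker, in 3 panels, one per comparison, with lines for medians. Nearly all points lie below 0 against control in each passage, while for 72 h against 48 h passage 12 lies mostly above 0 and passages 13 and 8 mostly below.

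The libraries of a group lay further apart after treatment, a difference that was not tested. Control libraries had a median SD of log2 CPM over the repair genes of 0.0923, those at 48 h 0.319 and those at 72 h 0.541 (n = 3 each), and over all tested genes 0.150, 0.239 and 0.300. Replicate 1 was the lowest 48 h library for 28 of 33 genes. At 72 h replicate 1 was the highest library for 27 genes and replicate 3 the lowest for 27. These ranks were not counted over all tested genes.

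Compared per length in untreated cells, as CPM per 1000 exonic bases (RPKM, mean ± SD, n = 3), PARP1 was highest at 42.5 ± 2.94, then UBE2T at 33.3 ± 2 and FANCI at 28.8 ± 1.22. MSH6, CLSPN, EXO1 and RAD51AP1 followed, at 26.6 to 23.2 RPKM, without gaps beyond their spread except below RAD51AP1. BRCA1 (15 ± 0.835) and BARD1 (15 ± 0.274), which work as a pair, lay side by side. BRCA2 was at 6.68 ± 0.421 RPKM and PALB2 at 6.99 ± 0.562 RPKM, with FANCL (6.72 ± 0.398) between them. FANCB (6.61 ± 0.612) and RAD54L (6.58 ± 0.603) lay within the same spread. FANCF, FANCC, FANCA, PMS2 and CHEK2 were at 4.78 to 3.66 RPKM, and RAD54B was lowest at 2.01 ± 0.21 RPKM. Of the 32 neighbouring pairs in this order, 11 did not overlap between their control libraries and 21 did.

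Other repair genes, of the same and of other routes, were taken from lists of textbook members. Of 140 tested, 50 (35.7%) were lower and 6 higher at 48 h, and 65 (46.4%) were lower and 14 higher at 72 h. Over all tested genes 16% and 19.4% were lower at the 2 times, and 14.9% and 20.4% higher. Median log2 fold changes of the 140 genes were -0.36 and -0.38. The 48 h count of lower genes was 26, 24 and 31 without control replicate 1, 2 or 3 and 19 without 48 h replicate 1, and the 72 h count was 42 without control replicate 2. Counts of higher genes at 72 h were 7, 7, 8 and 9 without control replicate 1, 2 or 3 or 72 h replicate 2. The difference between these genes and the 33 was not tested.

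Of 37 other recombination genes, 15 (40.5%) were lower and 1 higher at 48 h, and 19 (51.4%) lower and 3 higher at 72 h. POLQ, the polymerase of theta-mediated end joining, changed by -1.33 and -1.75 on the log2 scale. Of 13 other Fanconi genes, 3 (23.1%) and 5 (38.5%) were lower at the 2 times and 0 and 1 higher. RFWD3, a ubiquitin ligase acting on RPA, changed by -1.37 and -1.50, and USP1, which removes ubiquitin from FANCD2, changed by -1.28 and -1.57. Of 5 other mismatch repair genes, 2 (40%) were lower at each time and 0 higher. Of 15 other checkpoint genes, 9 (60%) and 12 (80%) were lower and 0 and 1 higher. PKMYT1, a kinase that inhibits CDK1, changed by -2.08 and -2.41, and CDC25A, the phosphatase that CHEK1 targets, changed by -1.73 and -2.05.

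The remaining routes were counted in the same way. Of 12 end joining genes, 7 (58.3%) and 8 (66.7%) were lower and 0 higher. PAXX, a Ku-binding factor, changed by -0.95 and -0.83, and TDP1, which clears blocked 3′ ends, changed by -0.71 and -0.90. Of 22 base excision and single-strand break repair genes, 6 (27.3%) and 7 (31.8%) were lower and 2 and 4 higher. NEIL3, a glycosylase, changed by -1.47 and -2.02, and LIG1, the replicative ligase, changed by -1.32 and -1.46. Of 22 nucleotide excision repair genes, 3 (13.6%) and 6 (27.3%) were lower and 3 and 4 higher, where 16% and 19.4% of all tested genes were lower. The gene ERCC6, which couples this repair to transcription, rose by 1.01 and 0.96: it had 199.6, 159 and 183 CPM in controls, 333, 379 and 382 CPM at 48 h and 353, 346 and 356 CPM at 72 h, without overlap. GTF2H2, a TFIIH subunit with near-identical copies in the genome, changed by -1.09 and -1.11. Of 14 translesion and direct reversal genes, 5 (35.7%) and 6 (42.9%) were lower and 0 and 1 higher. RAD18, the ligase that modifies PCNA, changed by -1.32 and -1.50, and ALKBH2, a direct reversal enzyme, changed by -1.01 and -0.88.

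Leaving out 1 library moved these counts. The lower counts at 48 h and 72 h ranged over 7 to 18 and 14 to 18 for recombination, 2 to 8 and 2 to 6 for Fanconi, 4 to 11 and 8 to 12 for checkpoint and 1 to 8 and 5 to 8 for end joining genes. They ranged over 3 to 11 and 5 to 10 for base excision, 0 to 5 and 1 to 6 for nucleotide excision and 1 to 7 and 3 to 6 for translesion genes. For mismatch repair the 48 h count was 1 without 48 h replicate 1 or control replicate 2. Some calls at 48 h were lost, with these adjusted p values: CDC25A without 48 h replicate 1 (0.0568) and NEIL3 without 48 h replicate 1 (0.053). The same held for PKMYT1 without 48 h replicate 1, control replicate 2, control replicate 3 or 48 h replicate 3 (0.0558 to 0.0703), PAXX without 48 h replicate 1, control replicate 2 or 48 h replicate 3 (0.0515 to 0.0668) and TDP1 without control replicate 1, 48 h replicate 1, control replicate 2 or 48 h replicate 3 (0.0573 to 0.0748). It held for GTF2H2 without control replicate 1, 48 h replicate 1, control replicate 2 or 48 h replicate 3 (0.0591 to 0.0903) and RAD18 without control replicate 1, 48 h replicate 1 or 48 h replicate 3 (0.0534 to 0.0684) too. At 72 h, PAXX without control replicate 2 or control replicate 3 (0.0526 to 0.0785) and GTF2H2 without control replicate 1 or control replicate 2 (0.0568 to 0.0578) were lost.

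**Figure D5:**
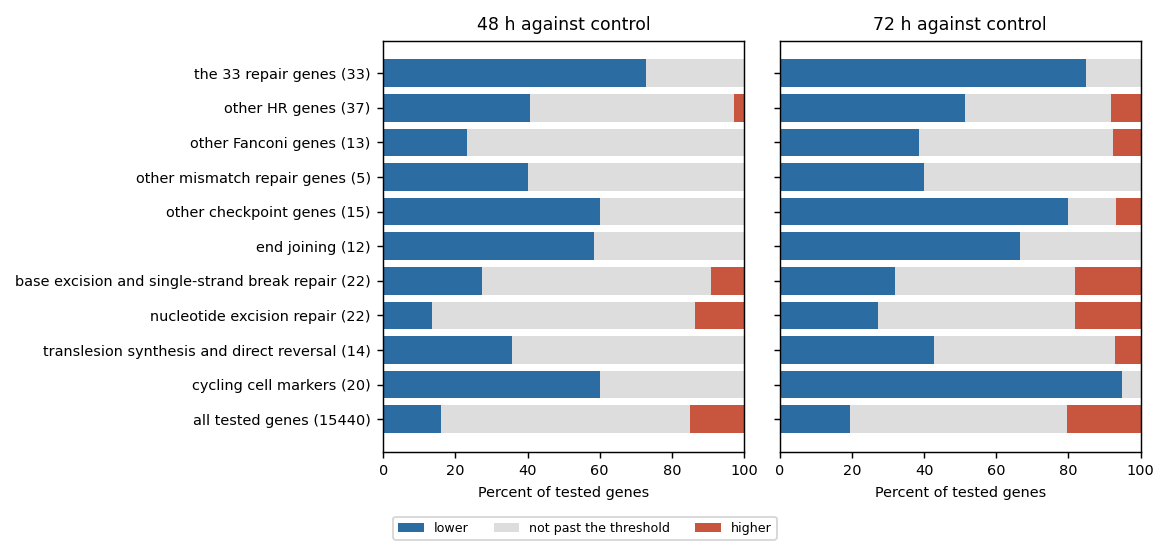
Percent of tested genes called lower, higher or neither at 48 h (left) and 72 h (right) in the 33 repair genes, in 8 lists of other repair genes, in the cycling cell markers and in all tested genes, with the number tested in parentheses. The 33 repair genes have 72.7% and 84.8% lower, against 16% and 19.4% of all tested genes.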

How the data were processed

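Total RNA of 9 libraries was sequenced after column extraction and a NEBNext Ultra RNA preparation, per the labels' protocols. The deposited values are a raw count of reads per Ensembl gene and library, not normalized by the authors. The submitters' processing notes name bcl2fastq 2.17.1.14, FastQC 0.11.5, STAR 2.5.2a, featureCounts 1.5.0-p1 and the build hg38. Not given in the sources used here are the annotation, the strand setting and how multimapping reads were handled.

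Symbols and gene coordinates came from GENCODE release 29 on GRCh38, which held 57895 of the 58233 identifiers. Groups, replicates and passages came from the labels. Each comparison was read from 1 edgeR 4.0.16 model (R 4.3.3) of all 9 libraries with TMM scaling, the filterByExpr filter, robust quasi-likelihood F tests with 6 residual degrees of freedom and Benjamini-Hochberg adjustment over 15440 genes at 0.05. CPM uses TMM-scaled library sizes, RPKM divides it by the union of exons, and SE is approximate (the size of the log2 fold change divided by the root of F). On simulated data the fit recovered 2.99%, 28.4% and 69.7% of genes changed 1.5-fold, 2-fold and 4-fold for 48 h against control. For 72 h against control it recovered 0%, 28.4% and 83.3%. Genes called though left unchanged numbered 5 and 3. The simulation changed 67, 67 and 66 genes at these folds, among 15138 (48 h) and 15121 (72 h). Far more genes were called in the measured data, 2478 lower and 2301 higher at 48 h alone. The adjusted threshold was therefore stricter in the simulation, and its shares do not measure the recovery in the measured data. A gene that was not called may still have changed. Replicates differed by more than sampling noise (chi-square per degree of freedom 9.95 to 179).

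Same-numbered libraries share a passage per the labels, and the alternative fit used it as a block with 4 residual degrees of freedom. Deviations from the group means correlated at 0.113, 0.0781 and 0.121 between control and 48 h, 0.0378, 0.109 and 0.100 between control and 72 h, and -0.0253, 0.490 and 0.493 between 48 h and 72 h, for replicates 1, 2 and 3. Other alternatives were DESeq2 1.42.0, its size factors, upper-quartile scaling, no filter or 1 CPM in 3 libraries, 2 groups only, a 2-fold or 0.01 threshold, and each library or passage left out.

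The 33 genes, the other lists and the markers were chosen with earlier results of these data known. All 33 are named; values in every library are given in each role group for the genes with the lowest and highest mean log2 fold change over both times (2 of each in groups of 8 or more) and for genes called at 1 time only. BLM, CHEK2 and sites near the start were added after their values were seen. Of each other list, the 2 largest mean changes among genes called at both times are named, apart from those not reported here. ATRIP, NHEJ1 and MGMT did not pass the filter.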

Additional observations from a re-analysis of the deposited data

How the results depend on the processing

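Results are given as repair genes called lower of 33, 24 at 48 h and 28 at 72 h. At 48 h the count was 10 at an adjusted p under 0.01 and 17 with a 2-fold threshold, and it ran from 22 to 29 under the other scalings, filters, tests and samples. At 72 h it was 22 and 23, and 26 to 29. With the replicate block, which pairs libraries of 1 passage, it was 21 at 48 h, where BRCA1, DNA2 and PMS2 lost their calls, and 28 at 72 h; no other call of the 33 changed. Leaving out 1 library gave 10 to 30 at 48 h and 26 to 29 at 72 h. Leaving out a whole passage gave 7, 3 and 24 at 48 h and 27, 9 and 26 at 72 h without replicate 1, 2 and 3, from fewer samples. No setting called a repair gene higher at 48 h or 72 h. Across 19 settings per gene, direction reversed in 1 case: FANCF at 72 h was -0.0193 without 72 h replicate 3, and 0.298 at the highest. Other scalings shifted the median of all genes by at most 0.0552 on the log2 scale and turned no direction.

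Over all tested genes the counts also moved. At 48 h, 2478 were lower and 2301 higher, against 1016 and 1048 at an adjusted p under 0.01 and 981 and 1177 with a 2-fold threshold. At 72 h, 3001 and 3151 became 1675 and 1687, and 1309 and 1714. Without passage 12, 356 and 409 were called at 48 h and 1556 and 1554 at 72 h, and without passage 13, 483 and 892, and 1051 and 1551. Leaving out 1 library gave as few as 1344 lower and 1287 higher at 48 h (without control replicate 2) and 2039 higher at 72 h (without control replicate 2). Between the times 0 genes were called, but 72 lower and 139 higher without the filter on low counts. Precision is limited by 3 libraries per group and their spread after treatment, and for RAD54B, with 22 counts in its lowest library, also by depth.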
